A study of Mus musculus with 28 samples.

Results

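Tuft cell genes were followed in mouse small-intestinal organoids given single ligands of the Tgfb superfamily. The set held 9 genes, taken by name from 29413 genes of the BMP table and 55416 genes of the TGFb table. They are Dclk1, Trpm5, Pou2f3, Gnat3, Sh2d6, Avil, Gfi1b, Rgs13 and Il17rb. The series asks which Tgfb superfamily members drive the final maturation of enterocytes at the villus tip, and measures expression by mRNA sequencing. All organoids were wild type (C57BL/6) epithelial cultures grown from intestinal crypts in a gel, first kept without any of the ligands. The BMP table holds 4 untreated controls, 4 samples given recombinant BMP2, and 3 samples for each of BMP7, BMP5, BMP4 and BMP3. A second table, the TGFb table, holds 3 untreated controls and 3 samples given recombinant Tgfb. Every ligand was used at 500 ng/ml for 24 h. Replicates are named here by the Roman numerals of their titles. The labels do not say whether replicates came from separate animals or cultures, so p-values measure the spread between these samples, which may be technical. Sequencing took more than 1 run, and the labels do not assign samples to runs.

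Tuft cells are rare chemosensory cells of the intestinal epithelium. They sense luminal metabolites and parasites through a cascade shared with taste cells, in which a G protein and a phospholipase release calcium that opens a cation channel. On activation they release interleukin 25, which acts on innate lymphoid cells, and the resulting interleukin 13 acts back on the epithelium and expands the tuft lineage. The transcription factor Pou2f3 is required for the lineage. In these bulk samples, fewer cells of a type and less RNA per cell cannot be told apart.

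The BMP table gives normalized counts, that is, gene counts divided by a size factor for each sample. The recovered libraries held from 21358620 to 24784834 reads, with 1 read standing for 0.826 to 1.28 normalized counts. Values of the TGFb table are TPM, transcript abundances scaled to a fixed total per sample, from which depth cannot be read. Markers of enterocytes, goblet, Paneth and enteroendocrine cells were present in every group. Dcn, a fibroblast matrix gene, was not among the genes of the BMP table and was listed at 0 in all 6 samples of the TGFb table. Col1a2 and Col3a1 were also at 0 in the TGFb table. Other genes of the same mesenchymal list of 8 were present. Vim had 119 to 180 normalized counts in controls of the BMP table, and Pdgfra 0 to 1.78 in those controls and 12.8 to 37.5 with BMP2. Of 6 crypt stem markers, 6 fell with BMP4, 6 with BMP2, 3 with BMP7 and 1 with BMP5 (limma). Their summed level was 136023 to 163295 normalized counts in controls, 10048 to 20266 with BMP2, 6609 to 8802 with BMP4, 61109 to 123174 with BMP5 and 49913 to 59519 with BMP7. With Tgfb, 6 of these 6 genes fell, and their sum was 361 to 373 TPM against 2840 to 3325 TPM in controls. The summed level of 8 enterocyte markers was 52504 to 98192 in controls and 365910 to 445940 with BMP4, where 7 of 8 rose. With BMP2 it was 32450 to 80652, where 1 rose and 4 fell. The sum of 8 goblet markers was 22818 to 38975 in controls, 91292 to 148473 with BMP4 (5 of 8 rose) and 29148 to 64927 with BMP2 (3 rose and 4 fell). The sum of 6 Paneth markers was 68084 to 85610 in controls and 25796 to 65605 with BMP2 (1 rose and 5 fell). Of 10 enteroendocrine markers, 4 rose and 4 fell with BMP2, and 1 rose and 3 fell with BMP4. All 6 proliferation genes fell with BMP2, BMP4 and Tgfb, and their sum was 29040 to 37680 in controls, 2798 to 4447 with BMP2 and 9824 to 13804 with BMP4. The part of these shifts in marker levels in the results for tuft genes was not tested.

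In untreated organoids most members were detected at a low level, and Gfi1b and Gnat3 were at or near 0. On the TPM scale, which is per length and allows genes to be compared, untreated levels followed the order Dclk1 at 2.97 ± 1.08 TPM (SD, n = 3), Rgs13 at 2.31 ± 0.287, Avil at 1.84 ± 0.458, Pou2f3 at 1.69 ± 0.190 and Trpm5 at 1.57 ± 0.0839. Sh2d6 at 1.05 ± 0.0700 TPM and Il17rb at 1.05 ± 0.446 TPM followed, and neighbours in this order overlapped in range except Trpm5 and Sh2d6. Gfi1b at 0.0844 ± 0.0330 TPM and Gnat3, with 0.0407 TPM in control II and 0 in the other two, stood lowest. Among further tuft genes, Il25, the cytokine of the tuft cell, had 0 reads in all 4 controls of the BMP table and at most 2.37 normalized counts in any sample. Sucnr1, the succinate receptor, was also at 0 in those controls and reached 2.53 to 17.0 normalized counts with BMP2. In the controls of the TGFb table Sucnr1 stood at 0, 0.0342 and 0.417 TPM. Of the 55 further tuft genes, Il25, Sucnr1 and Gnb3 were the only ones at 0 in all 4 controls of the BMP table. A value of 0 in bulk samples does not show absence from rare cells.

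Promoter sequence is shown for 3 members on which the differences between ligands turn: Avil and Trpm5, which were highest with BMP2, and Il17rb, which was highest with BMP4. They were chosen after their values were seen. Each run is the 250 bases upstream of the gene's start, 5′ to 3′ on the gene's strand, from RefSeq on GRCm38.p6. Capitals mark the letters ATGCAAA on either strand, the first 7 letters of the octamer bound by POU factors. The runs lie at chr10:127000459-127000708 (plus strand) for Avil, chr7:143094643-143094892 (minus strand) for Trpm5 and chr14:30008897-30009146 (minus strand) for Il17rb.
Avil: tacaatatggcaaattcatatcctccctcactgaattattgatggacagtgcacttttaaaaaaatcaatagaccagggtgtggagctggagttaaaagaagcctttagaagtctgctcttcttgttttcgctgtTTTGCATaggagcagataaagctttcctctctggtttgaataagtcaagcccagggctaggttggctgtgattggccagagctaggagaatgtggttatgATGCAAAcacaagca
Trpm5: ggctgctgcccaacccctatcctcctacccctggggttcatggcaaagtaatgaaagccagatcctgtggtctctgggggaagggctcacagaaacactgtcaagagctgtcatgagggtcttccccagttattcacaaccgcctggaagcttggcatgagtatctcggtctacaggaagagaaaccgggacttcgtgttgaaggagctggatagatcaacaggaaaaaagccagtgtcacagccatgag
Il17rb: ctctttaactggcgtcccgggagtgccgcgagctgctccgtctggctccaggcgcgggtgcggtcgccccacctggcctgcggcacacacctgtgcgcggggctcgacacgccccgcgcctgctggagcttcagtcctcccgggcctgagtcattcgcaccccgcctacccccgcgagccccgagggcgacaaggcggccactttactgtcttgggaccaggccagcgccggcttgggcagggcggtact
GC content was 42.0% for Avil, 52.8% for Trpm5 and 72.0% for Il17rb, against a median of 52.4% over 32851 promoters. RefSeq promoters were matched for 8 of the 9 members, with 2 starts for Dclk1, and Pou2f3 had none in the table. The full octamer ATGCAAAT was found in 0 of these members and in 1.60% of all promoters. The palindrome GTCTAGAC and the letters GGCGCC, both known as SMAD elements, were found in 0 members and in 0.167% and 9.59% of all promoters. The 7 letters ATGCAAA, which are part of the octamer and were searched only after the sequences had been seen, were found in Avil at both places in capitals. No other matched member held them, and 4.12% of all promoters did. A match describes letters in this window and no binding.

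Avil, which encodes advillin, an actin-binding protein of the villin family found in tuft cells, had the largest log2 fold change with BMP2 among the 7 tested members. Its normalized counts were 136, 97.1, 156 and 137 in controls II, III, IV and VI, and 1060, 1090, 1840 and 1010 with BMP2 in the same order of replicates. With BMP4 replicates II, III and VI gave 409, 318 and 497. With BMP5 they gave 191, 246 and 299, and with BMP7 they gave 379, 271 and 293. No sample of these 4 groups overlapped the controls, and every BMP2 sample lay above every sample of the other ligands. With BMP3 the counts were 132, 95.5 and 200 in replicates II, III and IV, on both sides of the controls. The ratio of group mean to control mean was 9.50 with BMP2, 3.10 with BMP4, 2.39 with BMP7 and 1.87 with BMP5.

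**Figure D1:**
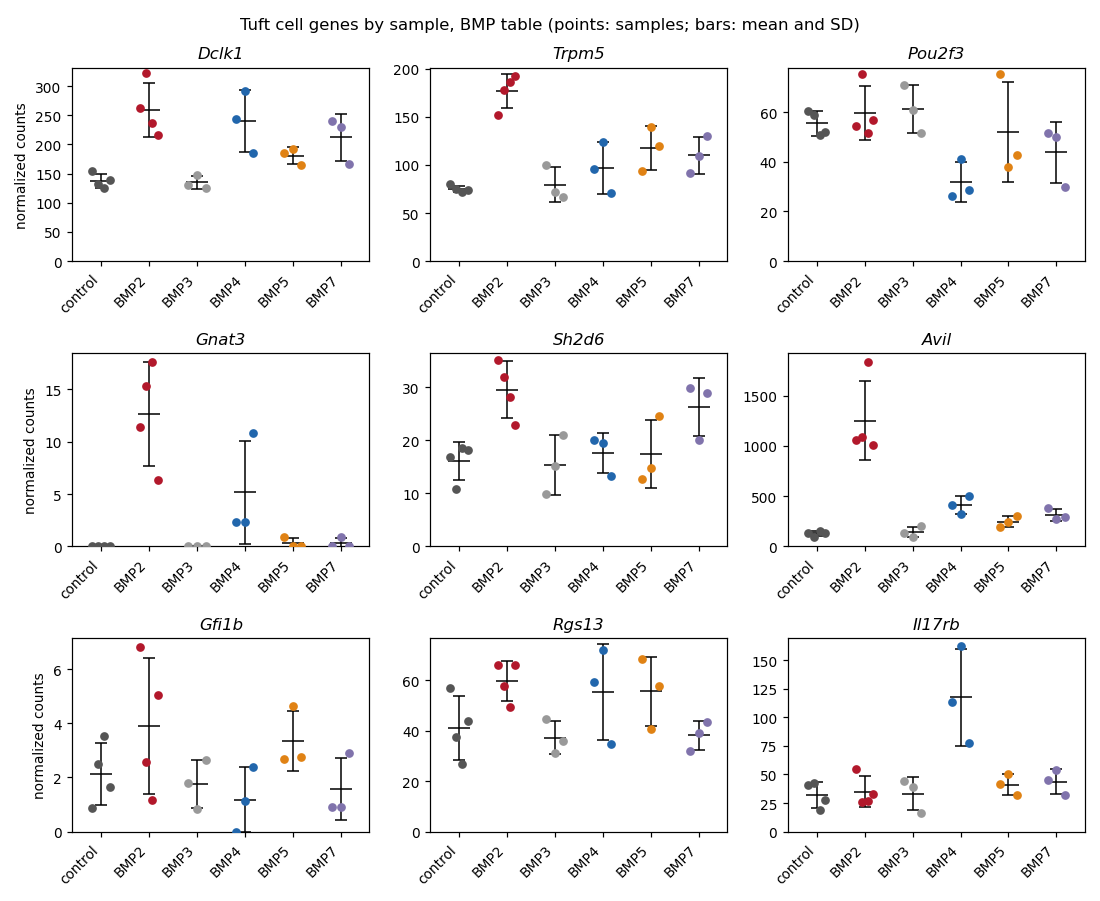
Normalized counts (y axis, from 0) of the 9 tuft cell genes in the 20 samples of the BMP table, grouped by treatment (x axis); points are samples and black bars the mean and SD of the group. Avil is at 1010 to 1840 in the 4 BMP2 samples and at 97.1 to 156 in controls, Il17rb is highest in the 3 BMP4 samples, and Gnat3 is at 0 in all controls.

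With BMP2, Avil, Trpm5, Dclk1 and Sh2d6 were higher than in controls. By limma with Benjamini-Hochberg adjustment over all genes, 4 of the 7 members tested were higher with BMP2 than in controls and 0 were lower. Gnat3 and Gfi1b stood under the minimum mean of 10 normalized counts and were not tested. Over all 14746 genes tested, 75.1% passed (36.8% higher and 38.4% lower), so the count alone says nothing particular about these genes. Avil rose by 3.21 on the log2 scale (SE 0.236, adjusted p = 4.66e-10).

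Trpm5, the calcium-activated cation channel that depolarises tuft cells, had 79.9, 74.7, 71.9 and 74.3 normalized counts in controls and 152, 178, 186 and 192 with BMP2. The lowest BMP2 sample was well above the highest control, and the ratio of means was 2.35. The log2 fold change was 1.22 (SE 0.181, limma adjusted p = 6.23e-06). Dclk1, a microtubule-associated kinase widely used as a tuft marker, had 154, 132, 126 and 139 in controls and 262, 322, 236 and 216 with BMP2, again without overlap. It rose by 0.89 (SE 0.156, limma adjusted p = 4.14e-05). The Dclk1 locus overlaps Gm25132, Gm9831 and Gm31443 in RefSeq, and counting by strand is not stated, so its reads may include theirs.

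Sh2d6, an SH2-domain adaptor of tuft cells, had 16.9, 10.8, 18.6 and 18.2 normalized counts in controls and 35.2, 32, 28.2 and 22.8 with BMP2. These groups did not overlap, and the log2 fold change was 0.85 (SE 0.284, limma adjusted p = 0.0116). Scaling every sample to the same total shifts the median log2 fold change of all genes by -0.45 with BMP2, and Sh2d6 then stood at 0.41 with adjusted p = 0.201, the highest of its alternatives (lowest 0.00325). Under that scaling 31.8% of all calls were higher, against 48.9% as deposited.

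The remaining members did not pass with BMP2. Rgs13, a regulator that speeds the switching off of G protein signals, had 56.8, 37.3, 26.6 and 43.8 normalized counts in controls and 65.8, 57.5, 49.4 and 65.8 with BMP2, so only the lowest BMP2 sample lay within the control range. Its log2 fold change was 0.57 (SE 0.253, limma adjusted p = 0.0504). It passed without BMP2 IV (adjusted p = 0.0408) or without control II (0.0171), and its alternatives ran from 0.00415 to 0.681. Pou2f3, the lineage factor, had 60.4, 58.9, 50.6 and 52 in controls and 54.5, 75.4, 51.8 and 57 with BMP2, and the groups overlapped (log2 fold change 0.09, SE 0.233). Il17rb, the receptor subunit for interleukin 25, also overlapped, with a log2 fold change of 0.12 (SE 0.344).

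Gnat3 encodes alpha-gustducin, the G protein subunit of taste and tuft cells. It had 0 reads in all 4 controls and in all 3 BMP3 samples. With BMP2 it had 11.4, 15.3, 17.6 and 6.33 normalized counts, from 10, 12, 15 and 5 reads. With BMP4 it had 2.37, 2.28 and 10.8, from 2, 2 and 9 reads. With BMP5 and BMP7 only 1 sample each held a read. Every BMP2 and BMP4 sample thus lay above every control, although 2 of the BMP4 samples stood at 2 reads, below the 3 reads that a count of 0 allows. Against that floor, a mean of 2.57 normalized counts over the control libraries, BMP2 was at least 4.92-fold higher, and at least 2.46-fold in its lowest sample. The mean with BMP4, 5.15 normalized counts, rested on BMP4 VI, and the lowest BMP4 sample was at 0.886 of the floor, so no bound is given. The exact two-sided permutation test gave p = 0.0286 for BMP2, the smallest that 4 against 4 allows, and 0.0571 for BMP4, the smallest that 3 against 4 allows. This test was chosen after the values were seen. Intervals and floors cover counting error only, since PCR copies of one molecule cannot be told from separate molecules.

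Gfi1b, a transcriptional repressor of tuft and blood cells, stayed near the limit of detection. It had 0.888, 2.49, 3.55 and 1.65 normalized counts in controls and 6.81, 2.56, 1.18 and 5.06 with BMP2, which overlap. Its highest sample of the BMP table held 6 reads. A difference at this depth was not detectable with any ligand: with the filter lowered to a mean of 1, its limma adjusted p against control was 0.340 or higher for all 5 ligands. It overlaps Gm52548 in RefSeq.

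BMP4 gave a different pattern from BMP2 in the receptor and in the lineage factor. By limma with Benjamini-Hochberg adjustment, 3 of the 7 members tested were higher and 1 was lower with BMP4, while 65.1% of all genes tested passed (33.7% higher and 31.4% lower). That share is near or above the members' own, so again the count says nothing particular about them. Il17rb had 40.8, 42.3, 18.6 and 27.3 normalized counts in controls, and 113, 162 and 77.8 with BMP4. All 3 BMP4 samples lay above every sample of every other group, and the ratio of means to control was 3.65. It rose by 1.84 (SE 0.372, limma adjusted p = 0.000259). With BMP2 it had 54.5, 25.6, 27.1 and 32.9, with BMP5 41.3, 50 and 31.9, and with BMP7 45.4, 53.7 and 31.8.

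Pou2f3 had 26.1, 41.1 and 28.7 normalized counts with BMP4, all below the lowest control at 50.6. Its mean was 1.74-fold lower than in controls, and it fell by 0.80 on the log2 scale (SE 0.252, limma adjusted p = 0.00951). Without BMP4 II the change was -0.67 with adjusted p = 0.0509, the highest over its alternatives (lowest 0.000488). Avil rose by 1.62 (SE 0.255, adjusted p = 1.84e-05) and Dclk1, with 243, 291 and 185 normalized counts, rose by 0.77 (SE 0.169, adjusted p = 0.000531) in the same limma fit. Scaling to the same total, which shifts the median of all genes by -0.39 with BMP4, left Dclk1 at 0.38 with adjusted p = 0.0707, the highest of its alternatives (lowest 1.26e-05). Under that scaling 31.1% of all calls were higher.

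Trpm5, Rgs13 and Sh2d6 did not pass with BMP4. Trpm5 had 96, 124 and 70.6 normalized counts, with BMP4 VI below all controls and the other two above them (log2 fold change 0.33, limma adjusted p = 0.154). Without BMP4 VI it passed, at 0.53 with adjusted p = 0.0281, and so did Rgs13, at 0.70 with adjusted p = 0.0352. Over all alternatives, adjusted p ran from 0.00876 to 0.767 for Trpm5 and from 0.0352 to 0.961 for Rgs13. Sh2d6 had 20.1, 19.4 and 13.2, which overlap the controls.

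BMP5 and BMP7 gave log2 fold changes of the tested members from -0.15 to 0.89 and from -0.37 to 1.26, with Avil highest for both. With BMP5, 2 of the 7 members tested were higher by limma and 0 were lower, against 26.3% of all genes (16.5% higher and 9.87% lower). Of all calls, 62.5% were higher, with 51.2% after quantile normalization and 68.5% with TMM factors. Avil rose by 0.89 (SE 0.255, adjusted p = 0.0143) and Trpm5, at 94.2, 139 and 120 normalized counts, by 0.62 (SE 0.196, adjusted p = 0.0245). Both groups lay above all controls, but the calls were lost with fewer samples. Avil did not pass without BMP5 III (0.88, adjusted p = 0.0516), BMP5 VI (0.74, 0.0889) or control III (0.75, 0.0503), and Trpm5 did not pass without BMP5 III (0.50, 0.139), BMP5 VI (0.60, 0.0822) or control IV (0.60, 0.0511). Over all alternatives, adjusted p ran from 0.000174 to 0.0889 for Avil and from 0.00752 to 0.139 for Trpm5. The number of all genes called with BMP5 also moved, from 3884 to 2515 without BMP5 III and 2532 without BMP5 VI.

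Dclk1 had 185, 193 and 165 normalized counts with BMP5, all above the highest control at 154, and a log2 fold change of 0.39 (limma adjusted p = 0.0956). With the replicate number as a block, which pairs these samples, it passed at 0.36 with adjusted p = 0.0272. That is the lowest over its alternatives, which reached 0.257.

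With BMP7, 3 of the 7 members tested were higher by limma and 0 were lower, against 32.4% of all genes (19.2% higher and 13.2% lower). Avil rose by 1.26 (SE 0.255, adjusted p = 0.000917). Dclk1 rose by 0.60 (SE 0.169, adjusted p = 0.0102), with 240, 230 and 166 normalized counts against at most 154 in controls. It did not pass without BMP7 II (0.51, adjusted p = 0.0641), the highest over its alternatives (lowest 0.00126). Trpm5, at 91.7, 109 and 130, rose by 0.53 (SE 0.196, adjusted p = 0.0443), a call that was lost under 9 of 19 alternatives. It was lost without BMP7 III or VI and without each of the 4 controls in turn, with adjusted p up to 0.195 (lowest 0.0255). Of all calls, 59.4% were higher, with 48.7% under scaling to the same total and 66.4% with TMM factors.

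Sh2d6 had 29.9, 20 and 28.9 normalized counts with BMP7, all above the highest control at 18.6. Its log2 fold change was 0.68 (SE 0.306), which did not pass by limma (adjusted p = 0.0990). Rgs13, at 31.8, 39.2 and 43.3, lay within the control range. Pou2f3 overlapped the controls with both ligands, at 75.3, 38 and 42.9 with BMP5 and 51.7, 50.1 and 29.8 with BMP7.

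No member passed with BMP3, and every member's values overlapped the controls. By limma, 0 of 7 members tested passed, as did 0% of all genes, and log2 fold changes of the members ran from -0.10 to 0.13. At an unadjusted p under 0.05 there were 0 members and 110 of all 14746 genes (0.746%). edgeR on recovered reads called 0 genes and DESeq2 called 1, no member among them. Dclk1 had 131, 148 and 126 normalized counts, Trpm5 100, 71.8 and 66.5, and Il17rb 44.5, 38.9 and 16.6, all overlapping the controls.

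**Figure D2:**
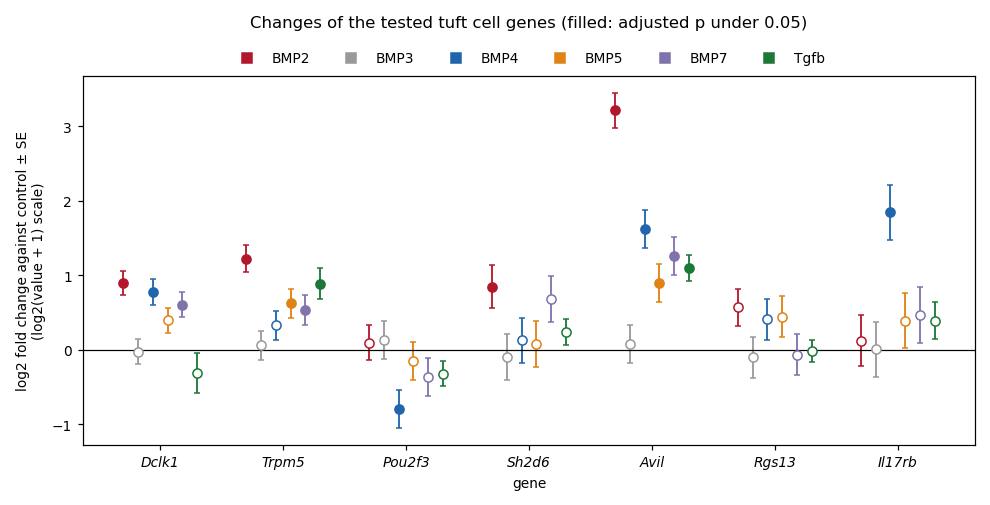
Log2 fold change against the controls of the same table (y axis, ± SE, on the log2(value + 1) scale) for the 7 tested tuft cell genes (x axis) with each ligand; filled points have a limma adjusted p under 0.05. Avil is highest with BMP2 at 3.21, Il17rb with BMP4 at 1.84, and Pou2f3 with BMP4 is the only filled point below 0, at -0.80.

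Ligands were then set directly against each other in the same fit, since a call with one ligand and not with another does not show a difference. BMP2 against BMP4 gave 5 of 7 members past the threshold by limma, 4 higher with BMP2 and 1 lower, against 66.8% of all genes (33.4% higher and 33.4% lower). Avil was higher with BMP2 by 1.59 (SE 0.255, adjusted p = 2.11e-05), Trpm5 by 0.89 (SE 0.196, adjusted p = 0.000534) and Pou2f3 by 0.89 (SE 0.252, adjusted p = 0.00445). Il17rb differed by -1.72 (SE 0.372, adjusted p = 0.000477), lower with BMP2. Sh2d6 differed by 0.72 with adjusted p = 0.0449, which was lost under 14 of 18 alternatives, among them the removal of any BMP4 sample or of BMP2 II, III or IV (adjusted p 0.0208 to 0.176 over all). Dclk1 differed by 0.12 (SE 0.169) and Rgs13 by 0.16 (SE 0.273), neither past the threshold.

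BMP2 against BMP7 gave 2 of 7 members by limma, against 62.8% of all genes (31.4% higher and 31.4% lower). Avil was higher with BMP2 by 1.96 (SE 0.255, adjusted p = 2.52e-06) and Trpm5 by 0.69 (SE 0.196, adjusted p = 0.00513). Scaling to the same total, which shifts the median of all genes by -0.38 here and makes 26.7% of calls higher, left Trpm5 at 0.30 with adjusted p = 0.187, the highest of its alternatives (lowest 5.17e-05). Rgs13 differed by 0.63 with adjusted p = 0.0509, and without BMP2 IV passed at 0.72 with adjusted p = 0.0428 (0.00696 to 0.430 over all alternatives).

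BMP4 against BMP7 gave 1 of 7 members by limma, against 59.8% of all genes (28.4% higher and 31.4% lower). Il17rb was higher with BMP4 by 1.38 (SE 0.397, adjusted p = 0.00590) and passed under all 17 of its alternatives. Pou2f3 differed by -0.43 (adjusted p = 0.180) and passed without BMP7 VI, at -0.68 with adjusted p = 0.0462 (0.0238 to 0.432 over all alternatives). Rgs13 differed by 0.48 (adjusted p = 0.171) and passed without BMP4 VI, at 0.77 with adjusted p = 0.0315 (up to 0.665). Of all calls, 28.7% were higher under scaling to the same total, which shifts the median of all genes by -0.32.

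BMP5 against BMP7 gave 0 of 7 members by limma, against 0.0136% of all genes, which is 1 gene higher (0.00678%) and 1 lower (0.00678%). At an unadjusted p under 0.05 there were 0 members and 347 genes, and no member passed by edgeR or DESeq2. The widest differences among members were -0.61 (SE 0.327) for Sh2d6, lower with BMP5, and 0.51 (SE 0.292) for Rgs13. Across all 5 ligands, limma's F-test found 6 of 7 members unequal, against 84.1% of all genes. Rgs13 was the exception, with adjusted p = 0.0943. It passed without BMP4 VI (adjusted p = 0.0268) and after quantile normalization (0.0123). Dclk1, at adjusted p = 0.000610, did not pass under scaling to the same total (0.105). Pou2f3 did not pass without BMP4 II (0.0814) or BMP4 VI (0.0631), and Sh2d6 did not pass under 9 of 25 alternatives, 7 of them the removal of 1 sample of BMP2 (II, III or IV), BMP3 (II or III) or BMP7 (II or VI).

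Tgfb changed the channel and the actin-binding member. By limma over 12959 genes with a mean of at least 1 TPM, 2 of 7 members tested were higher and 0 were lower, against 56.7% of all genes (27.4% higher and 29.3% lower). Avil had 1.56, 2.37 and 1.60 TPM in controls I, II and III, and 4.85, 4.18 and 6.16 with Tgfb. Trpm5 had 1.59, 1.64 and 1.48 in controls, and 3.76, 2.66 and 5.15 with Tgfb. In both genes every treated sample lay above every control. The ratio of means was 2.75 for Avil and 2.46 for Trpm5. Avil rose by 1.09 (SE 0.178, adjusted p = 0.00247) and Trpm5 by 0.89 (SE 0.205, adjusted p = 0.0106) on the log2(TPM + 1) scale, which understates changes of such low values.

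Dclk1 had 3.45, 3.72 and 1.74 TPM in controls and 2.19, 2.81 and 1.47 with Tgfb, which overlap (log2 fold change -0.31, SE 0.270). Pou2f3 had 1.79, 1.80 and 1.47 TPM in controls and 1.43, 1.05 and 0.970 with Tgfb. All treated Pou2f3 samples lay below all controls, by a narrow gap, and the difference of -0.33 (SE 0.168) did not pass by limma (adjusted p = 0.147). Il17rb (0.39, SE 0.247), Sh2d6 (0.24, SE 0.178) and Rgs13 (-0.02, SE 0.152) overlapped the controls. Gfi1b stayed at or below 0.140 TPM in all 6 samples, and Gnat3 was listed at 0 in all 3 Tgfb samples. With Tgfb, Avil at 5.06 ± 1.00 TPM (SD, n = 3) and Trpm5 at 3.85 ± 1.25 stood above Rgs13 at 2.28 ± 0.403 and Dclk1 at 2.15 ± 0.672, the members that led in controls.

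**Figure D3:**
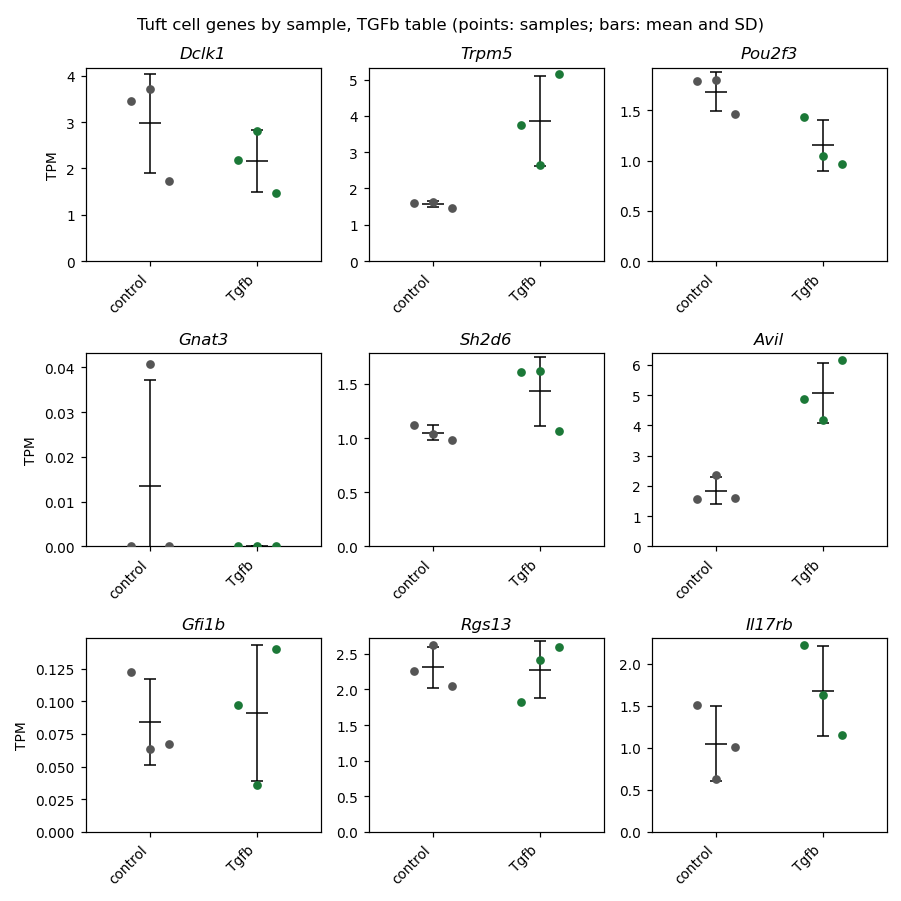
TPM (y axis, from 0) of the 9 tuft cell genes in the 3 control and 3 Tgfb samples of the TGFb table (x axis); points are samples and black bars the mean and SD. Avil and Trpm5, higher with Tgfb, and Pou2f3, lower by a narrow gap, do not overlap between the groups, while Dclk1, Rgs13, Sh2d6 and Il17rb do.

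The members did not all vary together. Over the 20 samples of the BMP table, which share ligands and depth, Pearson's r of log2 values between the 21 pairs of tested members ran from -0.45 to 0.79 with a median of 0.37. The highest pairs were Trpm5 with Avil (0.79) and Dclk1 with Avil (0.77), and the lowest was Pou2f3 with Il17rb (-0.45). With each value taken as its deviation from the group mean, r ran from -0.65 for Avil with Il17rb to 0.61 for Dclk1 with Pou2f3, with a median of 0.15 and 12 of 21 pairs above 0. These are descriptions over 20 samples. In several groups same-numbered samples deviated alike, so the 20 deviations are not independent of each other. On the same deviations, the genes most like the tested members among 11852 candidates were Lamb1 (mean r 0.37), Csgalnact2 (0.36), Ptprj (0.35), Dip2c (0.34) and Pcdhgc3 (0.34). Each of these 5 had a negative r with Avil.

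A further 55 tuft genes were examined in 5 lists by role, of which 38 passed the filter in the BMP table. Many of them are also expressed in stem, secretory or other epithelial cells. Some, such as Plcb2, were low in controls and passed the filter only through other samples. The counts and medians that follow include such genes, and so are no independent support for a rise. With BMP2, 23 of these 38 were higher and 6 lower by limma, with BMP4 16 and 7, with BMP5 12 and 3, with BMP7 11 and 4, and with BMP3 none in either direction. The count with BMP5, 15 in all, was 9 without BMP5 VI and 10 without BMP5 III. The background shares are those given above for each ligand. Their median log2 fold change was 0.77 with BMP2 beside -0.03 over all genes tested, 0.33 with BMP4 beside 0.04, 0.34 with BMP5 beside -0.03, 0.37 with BMP7 beside -0.05, and 0.05 with BMP3 beside 0.01. Of 29 tested with Tgfb, 12 were higher and 6 lower, with a median of 0.19 beside -0.04 over all genes. Some of the 29, such as Gng13, passed the filter of 1 TPM only through the Tgfb samples, and some only through controls. This count and median are therefore no independent support for a rise.

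The chemosensory list had 4 of 10 genes tested in the BMP table and 3 in the TGFb table. Itpr3, the calcium release channel, rose with BMP2 by 1.72 (SE 0.0961), with BMP4 by 0.52 (SE 0.104), with BMP5 by 0.61, with BMP7 by 0.70 and with Tgfb by 1.01 (SE 0.0809), all past the limma threshold. Plcb2, the phospholipase upstream of it, rose with BMP2 and BMP4, by 1.42 each (SE 0.372 and 0.402), and with BMP5 by 1.14. Plcb2 had 1.77 to 8.3 normalized counts in controls, and its mean reached the filter of 10 only through other samples. Plcg2, another phospholipase, rose with BMP2 by 0.39 and with BMP4 by 0.83. Tas1r3, a taste receptor subunit, passed with BMP4 at 1.04 (SE 0.388) and not with BMP2 at 0.57 (SE 0.360). Tas1r3 had 6.21 to 15.8 normalized counts in controls, with a mean just under the filter of 10. It reached the filter through other samples, so its test is no independent support for a rise. Gng13, the gamma subunit that pairs with gustducin, was tested only in the TGFb table. It had 0.0820 to 0.498 TPM in controls and 0.910 to 3.70 TPM with Tgfb, a difference of 1.17 (SE 0.364, limma adjusted p = 0.0324). Its mean was 0.354 TPM in controls and 2.23 TPM with Tgfb. It thus passed the filter of 1 TPM only through the Tgfb samples, and its test is no independent support for a rise. Plcg2 stood at -0.06 with Tgfb, which did not pass.

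In the transcription list, 5 of 7 genes were tested, and all 5 passed with BMP2, 3 higher and 2 lower. Runx1, a factor best known from blood formation, had 385 to 540 normalized counts in controls and 4130 to 5790 with BMP2, and rose by 3.46 (SE 0.165). It also rose with BMP5 by 2.17, with BMP7 by 2.39 and with Tgfb by 3.73, and was at 0.06 with BMP4, which did not pass. Ascl2, a factor of crypt stem cells that tuft cells also use, had 290 to 363 in controls and 21.2 to 42.0 with BMP2. It fell by 3.19 with BMP2, by 3.98 with BMP4 and by 0.51 with Tgfb. Sox4, a factor of early secretory cells, differed between BMP2 and BMP4 by 5.57 (SE 0.232), with 32600 to 41100 normalized counts with BMP2 and 559 to 1060 with BMP4. Against controls it rose with BMP2 by 2.66, with BMP5 by 1.31, with BMP7 by 1.21 and with Tgfb by 1.60, and fell by 2.91 with BMP4.

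The effector list had 4 of 9 genes tested. By limma 1 was higher and 1 lower with each of BMP2, BMP4, BMP7 and Tgfb, and 1 was higher and 0 lower with BMP5. Some of the genes tested with Tgfb passed the filter only through the Tgfb samples or only through controls. Pla2g4a, the phospholipase that frees arachidonic acid for eicosanoids, fell with BMP4 by 4.33 (SE 0.141), from 1880 to 2110 normalized counts in controls to 69.6 to 120. It also fell with BMP2 by 1.25 (SE 0.130), to 799 to 861 normalized counts, with BMP7 by 0.53 and with Tgfb by 0.42. In the list of structural and other genes, Tuba1a, a tubulin subunit, rose with BMP2 by 5.32 (SE 0.198), with BMP5 by 2.61, with BMP7 by 2.83 and with Tgfb by 3.67. Espn, an actin-bundling protein of microvilli, rose with BMP4 by 3.00 (SE 0.209), from 247 to 350 to 2240 to 2460 normalized counts, and with BMP2 by 1.31 (SE 0.194). It was also higher with BMP2 than with BMP7, by 1.52, and differed by -1.68 between BMP2 and BMP4, lower with BMP2. Atp2a3, a calcium pump, rose with BMP4 by 1.43 and BMP7 by 0.51, fell by 0.23 with Tgfb, and differed by -1.61 between BMP2 and BMP4, also lower with BMP2.

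Among 15 tested genes of 18 on the list of signalling adaptors and surface proteins, 9 were higher and 2 lower with BMP2, and 6 higher and 1 lower with BMP4. Some of these 15 were low in controls and passed the filter only through samples given a ligand. Fyb, an adaptor also used by leukocytes, fell with BMP2 by 1.31 (SE 0.120), with BMP5 by 0.40 and with BMP7 by 0.44. Hepacam2, an adhesion protein, fell with BMP2 by 0.67 (SE 0.146), with BMP5 by 0.53, with BMP7 by 0.61 and with Tgfb by 0.88 (SE 0.129).

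Receptors for the type 2 cytokines that act on tuft cells and their progenitors were higher with 5 of the 6 ligands. Il4ra had 403 to 532 normalized counts in controls and 2550 to 3960 with BMP2. It rose by 3.17 with Tgfb, 2.82 with BMP2, 2.33 with BMP7, 2.04 with BMP5 and 1.28 with BMP4. Il13ra1 had 1250 to 1650 in controls and 7570 to 11300 with BMP2, and rose by 1.97, 2.56, 1.39, 1.21 and 1.90 in the same order. Stat6, the factor they activate, rose with BMP4 alone among the ligands tested, by 0.38 (limma), and stood at -0.02 with BMP2. With BMP3, 0 of these 3 genes passed.

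**Figure D4:**
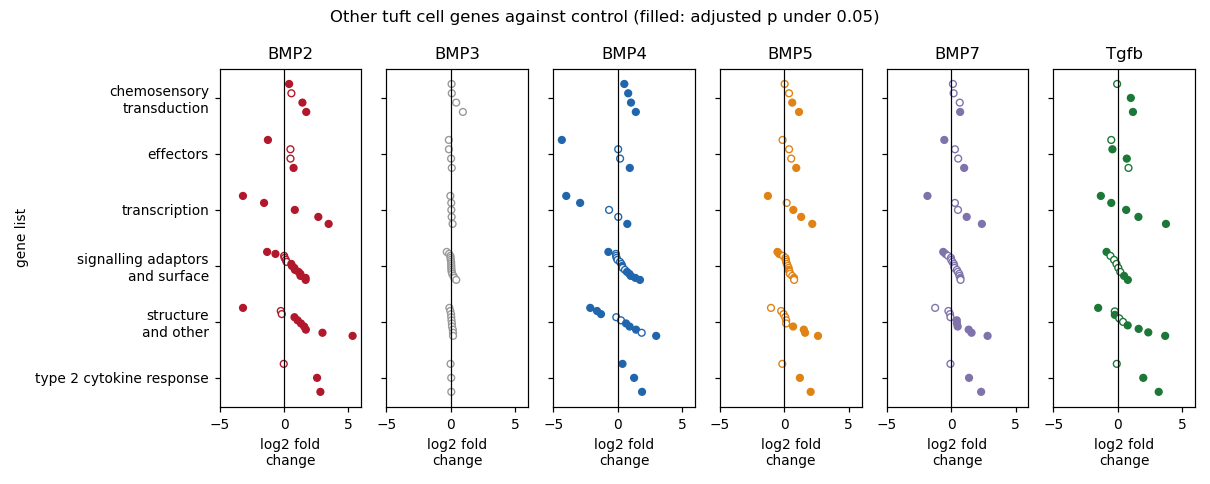
Log2 fold change against control (x axis) of the further tuft genes and the type 2 cytokine receptors, by list (y axis) and ligand (panels); each point is a gene and filled points have a limma adjusted p under 0.05. BMP3 has no filled point, and the highest value is Tuba1a with BMP2 at 5.32.

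Several members are also expressed in blood cells, so markers of other cell types were examined in the same samples. The summed level of the mast cell and basophil list was 9.13 to 97.5 normalized counts in controls, 207 to 757 with BMP2, 56.9 to 282 with BMP4, 123.5 to 781 with BMP5 and 185 to 791 with BMP7. It was 0.118 to 0.420 TPM in controls and 27.6 to 54.2 TPM with Tgfb. Nearly all of it came from Mcpt1 and Mcpt2, mast cell proteases. The defining markers were at or near 0: Cpa3 was at most 1.28 and Ms4a2 at most 1.85 normalized counts, and Cpa3, Ms4a2, Fcer1a and Mcpt8 were listed at 0 in all 6 samples of the TGFb table. Of the 8 genes on this list, 2 passed the filter in the BMP table, and both were higher with BMP2, BMP5 and BMP7 by limma. The myeloid list summed to 92.2 to 132 normalized counts in controls, 87.1 to 189 with BMP2 and 145 to 250 with BMP4. Of its 6 genes 4 were tested, and with BMP2 Csf1r (2.64) and Cd68 (1.14) rose while Itgam (-1.54) and Lyz2 (-1.06) fell. Csf1r also rose with BMP5 (2.03) and BMP7 (1.80), Lyz2 fell with BMP7 (-1.08), and Itgam rose with BMP4 (1.81). The defining macrophage marker Adgre1 was at most 3.59 normalized counts. The erythroid and megakaryocyte list summed to 6.64 to 12.4 in controls and 10.1 to 30.6 with BMP2, where the 1 gene tested, Itga2b, rose by 1.21. Its defining markers Hbb-bs and Pf4 were at most 0.889 and 0.911. The endothelial list summed to 570 to 776 in controls, 838 to 1027 with BMP2 and 869 to 1032 with BMP4, and the 1 gene tested, Pecam1, rose with BMP2 by 0.40 and with BMP4 by 0.49. Cdh5, a defining marker under the filter, had 0 in all controls and 22.7 to 40.9 normalized counts with BMP2. The mesenchymal list summed to 139.7 to 228 in controls, 79.4 to 117 with BMP2 and 34.2 to 51.4 with BMP4, where 1 of 2 tested genes fell with each. Lymphoid markers summed to at most 31.9 normalized counts. Neuronal and glial markers summed to 52.3 to 66.6 in controls and 120 to 190 with BMP2, where 2 of 4 tested genes were higher and 0 lower by limma, and with BMP4 2 were higher and 2 lower. Some tested markers were low in controls: Mcpt1 (0 to 6.61 normalized counts), Csf1r (3.3 to 6.21), Itga2b (6.64 to 11.5) and the glial S100b (0.888 to 4.96). They passed the filter of 10 only through samples given a ligand, so their tests are no independent support for a rise. The part of all these cell type markers in the results for the members was not tested.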

How the data were processed

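Expression was measured by single-end mRNA sequencing in 26 organoid and 2 mesenchymal samples. The submitters' processing notes name Trim Galore, Salmon, DESeq2 and GRCm39, without roles or versions. In the BMP table the authors deposited a normalized signal, gene counts divided by a size factor per sample, as read from the values: of 180721 values at or under 20 reads, 100% were whole reads within 0.1 read. Values above 999 reads, 20.97% of those above 0, are known to 3 digits only. In the other tables the authors deposited TPM, since columns sum to 1000000, and depth is unknown there. The tables were scaled separately, so tests stayed within a table. The number of per-sample columns left unmapped was 0.

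Values were transformed as log2(value + 1) and fitted in R 4.3.3 by limma 3.58.1 with a trend on mean level, two-sided, with Benjamini-Hochberg adjustment over all genes tested and a threshold of 0.05. The 6 groups of the BMP table entered 1 fit. Genes needed a mean of at least 10 normalized counts (14746 of 29413 genes) or 1 TPM (12959 of 55416), the latter because tuft transcripts are low. The design foresaw edgeR for raw counts, and neither table held them. edgeR 4.0.16 and DESeq2 1.42.0 on recovered reads were alternatives, with other pseudocounts, filters and scalings, pairs of groups alone, a replicate block and each sample left out. Exact permutation tests used scipy 1.17.1. The fit was tested on simulated data.

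Same-numbered samples were checked by correlating deviations from group means. Every pair exceeded 0.1 for BMP3 (0.281 to 0.553), BMP4 (0.19 to 0.225), BMP5 (0.158 to 0.262) and BMP7 (0.236 to 0.294) with control, which counts as pairing. BMP4 with BMP7 (0.206 to 0.293) and BMP5 with BMP7 (0.15 to 0.489) also paired. BMP2 with control (0.0182 to 0.421, 3 of 4 pairs over 0.1) and Tgfb with control (0.00405 to 0.0696, 0 of 3 over 0.1) did not. The main fit did not use replicate numbers for any ligand.

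The members and gene lists were chosen with earlier results of these data known. All 9 members are named, with, per comparison, the 2 largest rises and 2 largest falls among further tuft genes past the threshold at a mean of 50 normalized counts or 5 TPM. One gene that this rule names is not reported here. All tested genes of the chemosensory and type 2 receptor lists are also named, as are Il25, Sucnr1 and Gnb3, chosen after their values were seen. Promoters are RefSeq's on GRCm38.p6, another build than the files', and served only for sequence and for overlapping genes.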

Additional observations from a re-analysis of the deposited data

Results flagged for a closer look

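In 43 groups of 4 samples examined for the members and the other genes named, Dixon's test at its 95% critical value singled out 3 samples, and chance alone singles out about 1 group in 20. Avil stood at 1840 normalized counts in BMP2 IV, against 1010 to 1090 in the other BMP2 samples. Ascl2 stood at 363 in 1 control, against 290 to 298 in the others. Il13ra1 stood at 11300 in 1 BMP2 sample, against 7570 to 8170 in the others.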

How the results depend on the processing

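Of 70 results of single members in pairwise comparisons, 23 passed, 14 of these under every alternative run, and 0 of the 23 changed sign. Of the 47 that did not pass, 11 passed under some alternative and 23 changed sign under some. DESeq2 and the pairs of groups alone gave no test across 5 ligands and were not run for it. Depth limits Gnat3 and Gfi1b most, and TPM leaves it unknown. Other causes of the changes below were not tested.

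Counts of calls moved as follows. With a minimum mean of 50, which tests fewer genes, other tuft genes gave 19 calls with BMP2 in place of 29 and 15 with BMP4 in place of 23, and members gave 3 for BMP2 against BMP4 in place of 5. Members for BMP2 against BMP7, 2 as reported, gave 1 at the same total, 5 after quantile normalization and 4 with the replicate block. Members for BMP4 against BMP7, 1 as reported, gave 2 with a minimum of 1 or none, 0 with 50 and 4 at the same total, and 1 to 2 without a replicate. The member added with a minimum of 1 or none was Gnat3, with 0 reads in all controls. Gnat3 reached that minimum only through BMP2 and BMP4 samples, so its call is no independent support. With BMP5, leaving out a replicate gave 0 to 2 members and 9 to 13 other tuft genes in place of 15. With Tgfb, a minimum of 10 TPM left no member tested (0 calls) and gave 11 other tuft genes in place of 18.

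The replicate block also passed Rgs13 with BMP2 (adjusted p = 0.0341, limma) and Dclk1 and Rgs13 for BMP2 against BMP7 (0.0272 and 0.0185), and lost Sh2d6 for BMP2 against BMP4 (0.0736). By the check, in which every pair must exceed 0.1, these numbers do not pair. Still, 3 of 4 pairs of BMP2 with control exceeded it, and 2 of 3 of BMP2 with BMP4 and with BMP7. Beside Dclk1 with BMP5 the block changed no other call of a member.

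Results that did not pass changed sign at these log2 values. At the same total, Pou2f3 and Il17rb with BMP2 stood at -0.36 and -0.32, Trpm5 and Sh2d6 with BMP4 at -0.070 and -0.25, Dclk1 and Sh2d6 for BMP2 against BMP7 at -0.10 and -0.21, and Dclk1 for BMP4 against BMP7 at -0.16. After quantile normalization, Il17rb with BMP3 and Sh2d6 with BMP5 stood at -0.014 each, and Trpm5 for BMP4 against BMP7 at 0.11. Il17rb with BMP3 stood at -0.0062 with TMM factors and -0.054 with the block.

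Leaving out a replicate gave ranges across 0. With BMP3 they were -0.21 to 0.32 for Avil, -0.10 to 0.026 for Dclk1, -0.26 to 0.43 for Il17rb, -0.29 to 0.065 for Rgs13, -0.35 to 0.17 for Sh2d6 and -0.12 to 0.17 for Trpm5. For BMP2 against BMP4 they were -0.054 to 0.27 for Dclk1 and -0.14 to 0.38 for Rgs13. With BMP2 they were -0.11 to 0.27 for Il17rb and -0.024 to 0.15 for Pou2f3. For BMP5 against BMP7 they were -0.28 to 0.089 for Il17rb, -0.076 to 0.41 for Pou2f3 and -0.037 to 0.24 for Trpm5. With BMP5 they were -0.44 to 0.039 for Pou2f3 and -0.20 to 0.26 for Sh2d6. Rgs13 ran from -0.25 to 0.10 with BMP7 and from -0.089 to 0.085 with Tgfb, and Sh2d6 from -0.047 to 0.31 with BMP4 and from -0.010 to 0.28 for BMP2 against BMP7.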

Other observations

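The members were also listed for mesenchymal cells of the duodenum from a PdgfraH2BeGFP mouse, with 1 freshly isolated sample and 1 sample after immortalisation with a viral E6 gene and sorting, so no test was possible. Dclk1 stood at 4.13 TPM in the fresh and 23.1 TPM in the immortalised sample. Avil stood at 1.34 and 0.833 TPM, Sh2d6 at 0.850 and 0.180 TPM, and Pou2f3 at 0.166 and 0.0534 TPM. Il17rb was at 0.0416 TPM in the fresh sample and listed at 0 in the other. Trpm5, Gnat3, Gfi1b and Rgs13 were listed at 0 in both.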
